A study of Homo sapiens with 36 samples.

Results

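The response to activated Src was examined in cells depleted of TAZ, in 4 of the 36 RNA-seq libraries of the series: 2 libraries of MCF-10A ER-Src cells given TAZ siRNA and tamoxifen (TAZi_TAM) and 2 given TAZ siRNA and the vehicle ethanol (TAZi_ETH). The members were taken from the sample titles, and the measured feature was the RSEM expected count of each Ensembl gene. MCF-10A is an immortalised, non-transformed breast epithelial line, and ER-Src is v-Src fused to the ligand-binding domain of the estrogen receptor, which makes the kinase active once tamoxifen is added. All groups described here carry this fusion, and the ETH groups differ from the TAM groups of the same siRNA in treatment. The comparison groups were the same cells with a control siRNA (Ctrli_TAM and Ctrli_ETH, 2 libraries each) and with YAP siRNA (YAPi_TAM and YAPi_ETH, 2 libraries each). The cells were kept in charcoal-stripped serum without phenol red, with EGF, hydrocortisone, cholera toxin and insulin. The labels give tamoxifen at 0.4 to 1 µM, and they name AZD0530, an inhibitor of Src family kinases, at 2 to 4 µM in the same induction step without saying whether ETH cells received it. The hours of tamoxifen before RNA was taken were not given for these libraries. An siRNA lowers a transcript and does not remove it, so the TAZi cells are a knockdown model. No source says that the 2 libraries of a group came from separate cultures, so each p-value measures the spread between these libraries, which may be technical.

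TAZ is a transcriptional co-activator encoded by WWTR1 and is the paralog of YAP, encoded by YAP1. Both are held in the cytoplasm when the Hippo kinases phosphorylate them, and in the nucleus they act mainly through TEAD proteins, often beside AP-1 factors. In the ER-Src line, activated Src starts an inflammatory loop in which STAT3, AP-1 and NF-kB factors drive cytokines that act back on the same cells. The comparison asked which part of the transcriptional response to Src still took place when TAZ was low, and whether it differed in size from the response with control siRNA or with YAP siRNA.

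The study's list of oligonucleotides gives 1 TAZ siRNA sequence beside the catalogue number of a pool. It is shown because the TAZi libraries received a TAZ siRNA.
TAZ siRNA: acguugacuuaggaacuuu
This 19-base sequence matched 6 GENCODE transcripts, all of WWTR1, at chr3:149520887-149520905 (GRCh38, minus strand), in exon 7 of the 7 exons of the canonical transcript, within the coding sequence. Which of the pooled or single siRNAs was used for the RNA libraries is not stated.

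The target was low in the TAZi libraries. WWTR1 (ENSG00000018408.14, chr3:149517235-149736714, minus strand; gene positions here and below are from GENCODE 44 on GRCh38) stood at 1.89 and 2.77 TPM in ETH and 1.28 and 1.40 TPM in TAM with TAZ siRNA. With control siRNA it stood at 6.15 and 6.61 TPM in ETH and 6.59 and 6.44 TPM in TAM. With YAP siRNA it stood at 5.51 and 4.95 TPM in ETH and 5.04 and 5.11 TPM in TAM. The 4 TAZi values, on a scale set per transcript length and library total (TPM), lay below all 8 others. As counts scaled for library size by DESeq2 (normalised counts) WWTR1 had 103 and 101 in ETH and 79 and 103 in TAM with TAZ siRNA, a log2 fold change of TAM over ETH of -0.15 ± 0.37 (± SE, 2 libraries per group; DESeq2 adjusted p = 0.936) that did not pass the test. The TPM values were lower in TAM while the counts differed little. TPM also divides by a length that RSEM estimates in each library, and the part of this in the difference was not tested. YAP1 stood at 28.8 and 29.3 TPM in ETH and 28.1 and 25.0 TPM in TAM in the same cells, with a log2 fold change of 0.07 ± 0.13 (DESeq2 adjusted p = 0.898).

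The 4 libraries held 9620449 and 7949070 expected counts in ETH and 11428402 and 15596733 in TAM, within the range of 6419720 to 19161700 over the 20 ER-Src libraries. The log2 ratio between the replicates had an SD of 0.298 over 10001 genes in ETH and 0.246 in TAM. One library stood apart by the base composition of its transcripts. In TAZi_ETH replicate 2, the highest of 5 equal gene groups by transcript GC content lay 0.39 above the mean of the 20 libraries (median log2 deviation) and the lowest group lay 0.31 below it, against 0.13 above and 0.15 below in TAZi_ETH replicate 1. Across 9689 genes, which all rest on these 4 libraries, the TAZi log2 fold change had a Spearman rho of -0.46 with transcript GC content, where the Ctrli response had 0.09 and the YAPi response 0.10. Median log2 fold changes in TAZi ran from 0.19 in the lowest group to -0.25 in the highest. An offset that removes each library's GC trend was therefore fitted as well, and calls of named genes that are lost with it are stated. With that offset the rho was -0.002. The part of this composition in the results below was not tested beyond the offset and the fits without that library.

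**Figure D1:**
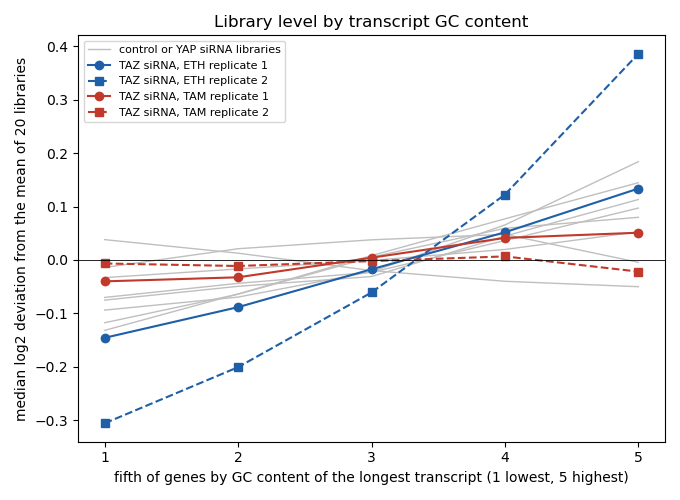
Median log2 deviation of each library from the mean of 20 ER-Src libraries (vertical axis) in 5 equal groups of genes ordered by transcript GC content (horizontal axis). Coloured lines are the 4 TAZi libraries and grey lines the 8 Ctrli and YAPi libraries; TAZi_ETH replicate 2 runs from 0.31 below the mean to 0.39 above it.

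The epithelial identity of the cells was checked with marker genes. The 10 basal mammary markers summed to 4075 and 4493 TPM in TAZi_ETH and 3455 and 3588 TPM in TAZi_TAM. The 10 luminal markers summed to 361 and 379 TPM in ETH and 304 and 293 TPM in TAM. The luminal list holds ESR1, whose reads may come from the ER-Src fusion, so its sum may be raised by an unknown amount. The 8 fibroblast markers summed to 159 and 141 TPM in ETH and 215 and 224 TPM in TAM, with COL1A2, a defining collagen, at 0 counts in all 4, while DCN, LUM and FAP, 3 of the 6 with an adjusted p, were called higher in TAM (list median log2 fold change 1.63). The immune markers summed to 11.9 and 13.5 TPM in ETH and 22.2 and 19.2 TPM in TAM, with CD3E and LYZ among those at 0 counts and CD68, 1 of the 3 with an adjusted p, called higher (CD14 as well with the GC offset), and the endothelial markers did not exceed 1.38 TPM, with CDH5 at 0 counts. The summed level was highest for the basal list in all 4 libraries. In bulk RNA, fewer cells of a type and less RNA per cell cannot be told apart.

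A large set of genes differed between TAM and ETH in cells with TAZ siRNA. Among them were LTF, HP, IL24 and the paralogs SERPINB3 and SERPINB4, of the 10 that rose most, and KRT15, of the 10 that fell most. In TAZi, 1124 of 15949 genes were called between TAM and ETH (DESeq2 adjusted p under 0.01), 691 of them higher in TAM (4.33%) and 433 lower (2.71%). With the GC offset, 761 of 14775 genes were higher (5.15%) and 374 lower (2.53%). Of the 1124 calls, 1076 were protein-coding genes. No called gene had overlapping groups, which a call with 2 libraries per group nearly requires, so this adds no support to the calls. Of the called genes, 932 were protein coding with a mean normalised count of at least 100. Of these 932 called genes, 273 rose more than 1 and 28 more than 4 on the log2 scale. Another 161 fell more than 1, and 18 of them more than 2. Leaving out TAZi_ETH replicate 2 left 588 calls, leaving out TAZi_TAM replicate 1 left 486 and leaving out TAZi_TAM replicate 2 left 470, each in a fit that assumes the lone library to vary like the other group.

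SERPINB4 (ENSG00000206073.10, chr18:63637259-63644256, minus strand), a serine protease inhibitor known as a squamous cell carcinoma antigen, had normalised counts of 6.48 and 2.59 in ETH and 11056 and 12199.8 in TAM, a log2 fold change of 11.27 ± 0.52 (DESeq2 adjusted p = 1.75e-101). Its neighbour and close paralog SERPINB3 (ENSG00000057149.14, chr18:63655197-63661893, minus strand) had 98.2 and 98.3 in ETH and 19906 and 21026 in TAM, a log2 fold change of 7.70 ± 0.14. The 2 genes share most of their sequence, so the split of reads between them rests on RSEM's assignment and is uncertain. IL24, a cytokine of the IL-10 family, had 16.2 and 18.1 in ETH and 8990.0 and 10896 in TAM, a log2 fold change of 9.19 ± 0.29 (DESeq2 adjusted p = 8.80e-216). CHI3L1, a secreted chitinase-like glycoprotein, had 18.4 and 24.6 in ETH and 6434 and 5588 in TAM, a log2 fold change of 8.15 ± 0.27. GRAMD1B, a sterol transfer protein of the endoplasmic reticulum, had 3.24 and 3.88 in ETH and 730.0 and 685 in TAM, a log2 fold change of 7.65 ± 0.62. These genes were chosen among those whose groups do not overlap, so the separation of TAM from ETH was set by the choice. In each of them the 2 TAM values lay close to each other.

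The other five genes of this set were close to absent in ETH, where each had 1 to 3 reads over both libraries, so their folds are given as ratios of depth-scaled summed counts with 95% counting intervals. LTF, the iron-binding lactoferrin of secretions, had normalised counts of 1.08 and 0 in ETH and 976 and 922 in TAM, a ratio of 1605 (288 to 63410.3). HP, the haptoglobin that binds free haemoglobin (ENSG00000257017.8, chr16:72054505-72061055, plus strand), had 3.24 and 0 in ETH and 2923 and 2184 in TAM, a ratio of 1411 (483 to 6843). TMPRSS4, a membrane serine protease, had 0 and 1.29 in ETH and 323 and 269 in TAM, a ratio of 495 (88.6 to 19579). These genes went from a few reads to high counts in both TAM libraries. CD300E, a receptor described on myeloid cells, stood beside immune markers at the low summed levels given above, and had 0 and 1.29 in ETH and 302 and 244 in TAM, a ratio of 456 (81.5 to 18022). LBP, which binds bacterial lipopolysaccharide, had 1.08 and 0 in ETH and 213 and 225 in TAM, a ratio of 374 (66.8 to 14796). The intervals cover counting error only. HP overlaps TXNL4B on the other strand, and without a stated strand setting reads from the 2 cannot be told apart.

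**Figure D2:**
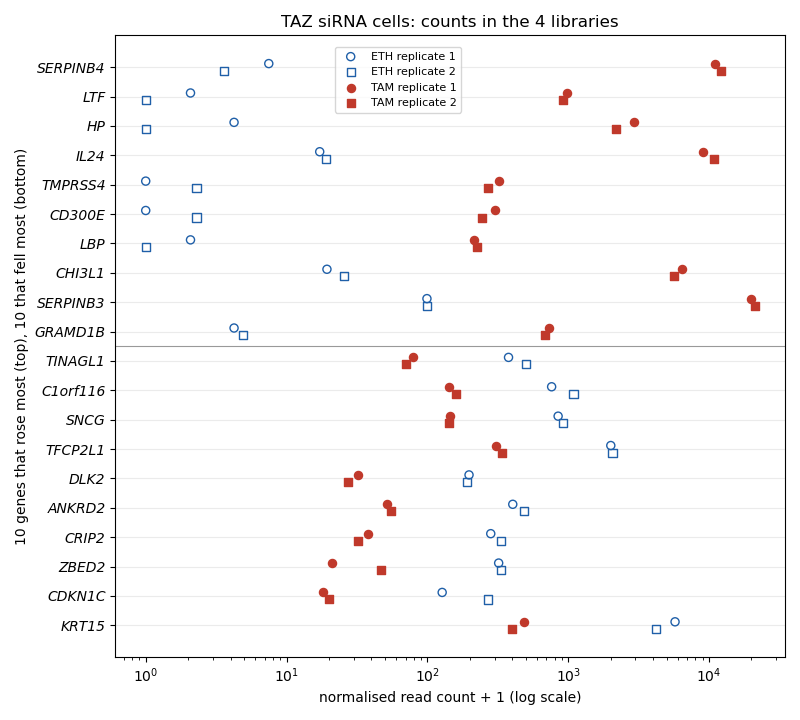
Normalised read count plus 1 (horizontal axis, log scale) in each of the 4 TAZi libraries for 10 genes with the largest rise and 10 with the largest fall by log2 fold change. Open blue symbols are ETH and filled red symbols TAM; the genes were chosen among those whose groups do not overlap.

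KRT15 (ENSG00000171346.13, chr17:41513745-41522529, minus strand), a keratin of the basal layer, had normalised counts of 5730.1 and 4214 in ETH and 484 and 396 in TAM, a log2 fold change of -3.50 ± 0.15 (DESeq2 adjusted p = 4.26e-117). TFCP2L1, a transcription factor of the grainyhead family, had 2004 and 2059 in ETH and 306 and 337 in TAM, a log2 fold change of -2.66 ± 0.14. CDKN1C, the CDK inhibitor p57, had 126 and 266 in ETH and 17 and 19.1 in TAM, a log2 fold change of -3.43 ± 0.45. The ETH libraries of CDKN1C were uneven, and its groups were apart, as the choice of these genes required. ZBED2, a zinc finger factor, had 319.5 and 332 in ETH and 20.0 and 46.0 in TAM, and DLK2, a membrane protein with EGF repeats, had 196 and 190.1 in ETH and 31 and 26.2 in TAM. In both, the TAM libraries were a small share of the ETH level. SNCG, gamma-synuclein, had 846 and 917 in ETH and 143 and 142 in TAM, and TINAGL1, a matrix glycoprotein, had 376 and 502 in ETH and 78 and 69.3 in TAM. ANKRD2, an ankyrin repeat protein best known from muscle, had 403 and 484 in ETH and 51 and 53.8 in TAM. CRIP2 and C1orf116 complete the set, with log2 fold changes of -3.18 ± 0.31 and -2.62 ± 0.21. With the GC offset all 10 remained called, with log2 fold changes between -3.38 for KRT15 and -2.34 for TINAGL1.

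Genes of the STAT3 pathway rose in cells with TAZ siRNA, from receptor to feedback inhibitor. Of the 20 listed members with an adjusted p, 10 were higher in TAM and none lower, with a list median of 0.92 on the log2 scale against -0.01 over all genes tested, and the count was 10 with the GC offset and 10 without TAZi_ETH replicate 2. IL6, the cytokine that starts this pathway, was near the limit of detection, with normalised counts of 0 and 2.59 in ETH and 8 and 10.6 in TAM, and DESeq2 gave it no adjusted p. The ratio of its summed counts was 8.10, with a counting interval of 2.00 to 70.9. JAK2, a kinase bound to cytokine receptors, had 106 and 106 in ETH and 334 and 297 in TAM, a log2 fold change of 1.57 ± 0.26 (DESeq2 adjusted p = 7.56e-08). STAT3 itself, the transcription factor, had 2177 and 2192 in ETH and 5050.0 and 4663 in TAM, a log2 fold change of 1.15 ± 0.10 (DESeq2 adjusted p = 7.55e-28). It rose with control siRNA by 1.12 ± 0.11 and with YAP siRNA by 1.39 ± 0.13. Its levels in the 2 libraries of each TAZi group were nearly equal. SOCS3, the feedback inhibitor that STAT3 induces, had 55.1 and 73.7 in ETH and 3530.0 and 3452 in TAM, a log2 fold change of 5.77 ± 0.18 beside 5.77 ± 0.17 in Ctrli and 5.49 ± 0.19 in YAPi. BCL6, a transcriptional repressor, had 422 and 413 in ETH and 998 and 946 in TAM, and PIM1, a survival kinase, had 76.6 and 146 in ETH and 303 and 298 in TAM. The other members called were IL6ST, OSMR, CISH, BCL3 and MUC1.

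AP-1 factors rose as well, with differences among the members. Of 9 listed genes, 5 were higher and 1 lower. FOS had normalised counts of 198 and 155 in ETH and 923 and 759.7 in TAM, a log2 fold change of 2.25 ± 0.20 (DESeq2 adjusted p = 8.65e-27). JUNB had 684 and 994 in ETH and 2989 and 2752 in TAM, a log2 fold change of 1.78 ± 0.15 (DESeq2 adjusted p = 1.65e-28). FOSL2 had 1361 and 1671 in ETH and 2209 and 2354 in TAM, a log2 fold change of 0.59 ± 0.13 (DESeq2 adjusted p = 9.77e-05). In these 3 both TAM libraries lay above both ETH libraries, as groups lay apart in every called gene. ATF3 and BATF3, of lower abundance, were the other 2 that rose. JUND had 413 and 725 in ETH and 276 and 245 in TAM, a fall of -1.13 ± 0.25 (DESeq2 adjusted p = 1.22e-04) that was not called with the GC offset (DESeq2 adjusted p = 0.043); its high ETH value was in replicate 2. JUN and FOSL1 did not pass, with log2 fold changes of 0.04 ± 0.21 and 0.18 ± 0.33.

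Acute phase genes, many of them known targets of STAT3, NF-kB and C/EBP factors, rose in the largest share of the lists of over 10 genes. Of 20 acute phase and antimicrobial genes, 16 were higher in TAM and none lower, with a median of 2.77. The counts were 14 of 18 in Ctrli and 14 of 20 in YAPi. S100A8, a subunit of calprotectin, had normalised counts of 612 and 729 in ETH and 33390.0 and 33219.8 in TAM, a log2 fold change of 5.64 ± 0.10. SERPINA3, an inhibitor of neutrophil proteases, had 154 and 167 in ETH and 6159 and 5416 in TAM, a log2 fold change of 5.17 ± 0.14. With LTF and HP these were the members with the largest changes. SAA1 and SAA2 rose too, but near-identical copies make their split uncertain. The group count was 16 with the GC offset and 14 without TAZi_ETH replicate 2.

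Of 19 cytokines, chemokines and their receptors, 13 were higher and 1 lower, with a median of 1.09. CCL20, which attracts CCR6-bearing lymphocytes, had normalised counts of 325 and 321 in ETH and 2320.0 and 2496 in TAM, a log2 fold change of 2.90 ± 0.14. IL32 had 84.2 and 105 in ETH and 436 and 413 in TAM, a log2 fold change of 2.17 ± 0.25, and IL1B, the inflammatory interleukin-1 beta, had 341 and 401 in ETH and 900.0 and 835 in TAM, a log2 fold change of 1.23 ± 0.17. IL18 was the member that fell, with 1087 and 1064 in ETH and 568 and 652 in TAM. The count of higher members was 12 with the GC offset and 9 without TAZi_ETH replicate 2. Among 14 genes of NF-kB subunits, inhibitors and feedback, 4 were higher, namely BIRC3, ICAM1, RELB and NFKB1. BIRC3, an inhibitor of apoptosis, had 1967 and 1879 in ETH and 3844 and 4529.6 in TAM, and ICAM1, an adhesion receptor for leukocytes, had 416 and 519 in ETH and 1400.0 and 1392 in TAM. NFKB1 was not called with the GC offset (DESeq2 adjusted p = 0.146), and 2 of the 4 calls were left without TAZi_ETH replicate 2. TNFAIP3, the feedback inhibitor of NF-kB, did not pass, with a log2 fold change of 0.39 ± 0.18.

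**Figure D3:**
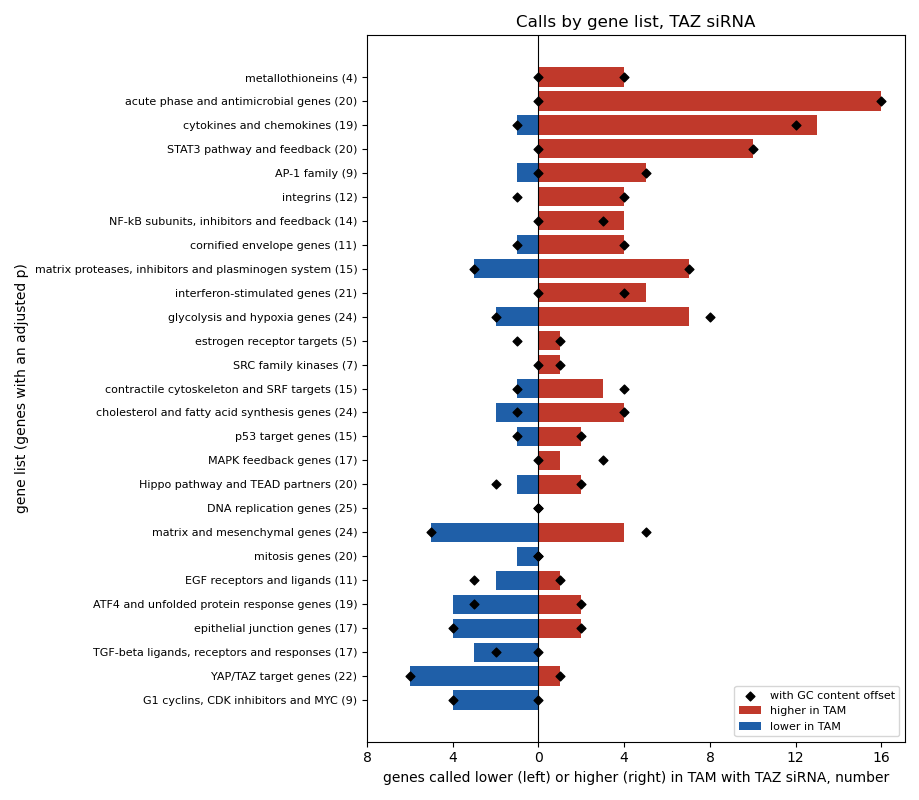
Number of genes called lower (bars to the left) or higher (bars to the right) in TAM with TAZ siRNA in each of 27 gene lists, with the genes tested in parentheses. Black diamonds give the counts with the GC content offset; acute phase genes have 16 of 20 higher and YAP/TAZ targets 6 of 22 lower.

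Metallothioneins, which bind zinc and copper, rose together. All 4 with an adjusted p were higher, as they were in Ctrli and in YAPi. MT1X had normalised counts of 641 and 587 in ETH and 8376 and 8143 in TAM, a log2 fold change of 3.75 ± 0.11, and MT2A had 6159.7 and 6783 in ETH and 21604 and 18610.2 in TAM, a log2 fold change of 1.64 ± 0.10. Metallothionein genes are near-identical, so the division among them is uncertain.

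Proteases and matrix genes moved in both directions. Of 15 matrix proteases, inhibitors and plasminogen genes, 7 were higher and 3 lower. SERPINE2, a secreted inhibitor of thrombin and plasminogen activators, had normalised counts of 73.4 and 94.4 in ETH and 652 and 611 in TAM, a log2 fold change of 2.92 ± 0.23. PLAUR, the urokinase receptor, had 179 and 265 in ETH and 1022 and 918 in TAM, a log2 fold change of 2.13 ± 0.20. Both rose evenly in the 2 TAM libraries. TIMP3, a metalloproteinase inhibitor bound to matrix, went the other way, with 762 and 1016 in ETH and 182 and 188 in TAM and a log2 fold change of -2.26 ± 0.20. Of 24 matrix and mesenchymal genes, 4 were higher and 5 lower. TNC, the matrix protein tenascin C, had 44.3 and 59.5 in ETH and 2647 and 2499.7 in TAM, a log2 fold change of 5.65 ± 0.20, and LOX, a collagen cross-linking enzyme, had 376 and 279 in ETH and 996 and 695 in TAM. The LOX libraries were more spread than those of TNC. THBS1, thrombospondin 1, had 13584 and 12629 in ETH and 4236 and 4042 in TAM, a log2 fold change of -1.66 ± 0.09. The part of the fibroblast markers that rose, given above, in the matrix results was not tested. Among 12 integrins, 4 were higher, with ITGB6 the largest at 261 and 226 in ETH and 2149 and 2225 in TAM. Of 24 glycolysis and hypoxia genes, 7 were higher and 2 lower. STC1, a secreted glycoprotein hormone, had 11.9 and 12.9 in ETH and 1467 and 1265 in TAM, and PFKFB3, which makes the activator of phosphofructokinase, had 243 and 286 in ETH and 1466 and 1422 in TAM. STC1 was near absent in ETH and PFKFB3 was not. VEGFA, the angiogenic growth factor, had 505 and 515 in ETH and 1744 and 1541 in TAM, and SLC2A3, a glucose transporter, had 51.8 and 28.4 in ETH and 249 and 173 in TAM.

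Canonical YAP/TAZ target genes tended to be lower in TAM. Of 22 such genes, 6 were lower and 1 higher, with a median of -0.45 against 0.05 in Ctrli, where 1 was lower and 3 higher, and -0.25 in YAPi, where 5 were lower. IGFBP3, which binds insulin-like growth factors, had normalised counts of 316 and 335 in ETH and 120.0 and 94.8 in TAM, a log2 fold change of -1.61 ± 0.26. CRIM1, a membrane antagonist of BMP ligands, had 3097 and 3329 in ETH and 1434 and 1553 in TAM, a log2 fold change of -1.10 ± 0.11. GADD45A, a stress and growth arrest gene, had 218 and 283 in ETH and 116 and 94.8 in TAM, and FJX1 had 514 and 837 in ETH and 231 and 236 in TAM. In all 4 both TAM libraries lay below both ETH libraries, as groups lay apart in every called gene. The other two that fell were AXL and PTPN14, and the one that rose was F3, tissue factor. The same counts, 6 and 1, were obtained with the GC offset, and 5 and 1 without TAZi_ETH replicate 2. The commonly used targets CCN1, CCN2 and ANKRD1 did not pass, with log2 fold changes of -0.60 ± 0.19, -1.46 ± 0.46 and -1.72 ± 0.58. Between the TAZi and Ctrli responses, no target was called in the interaction test by DESeq2 or edgeR, 10 of 22 had an unadjusted DESeq2 p under 0.05, and CRIM1 and PTPN14 were called with the GC offset (DESeq2 adjusted p = 0.00554 and 0.00814).

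Basal epithelial genes fell or rose by member. Of 10 basal markers, 5 were lower and 2 higher with TAZ siRNA. EGFR, the EGF receptor, had normalised counts of 3519 and 3993 in ETH and 1546 and 1666 in TAM, a log2 fold change of -1.22 ± 0.11. TP63, the transcription factor of basal cells, had 452 and 388 in ETH and 214 and 229 in TAM, a log2 fold change of -0.92 ± 0.21. In both the TAM libraries lay below the ETH libraries, as groups lay apart in every called gene. KRT17, a keratin of stressed epithelium, had 28507 and 38576 in ETH and 51436 and 55427 in TAM, a rise of 0.67 ± 0.12, and CDH3, P-cadherin, had 2462 and 2776 in ETH and 5920.0 and 6302 in TAM, a rise of 1.22 ± 0.10. KRT14 and COL17A1 were not called lower with the GC offset (DESeq2 adjusted p = 0.0105 and 0.122). Of 11 cornified envelope genes, KRT6A, KRT6B, KRT6C and KRT16 were higher and TGM1 lower, and reads of the KRT6 copies are split among near-identical genes. Of 17 epithelial junction genes, 4 were lower and 2 higher. PKP2, a desmosomal plaque protein, had 727 and 698 in ETH and 318 and 315 in TAM, a log2 fold change of -1.17 ± 0.17. Of 11 EGF receptors and ligands, 1 was higher, HBEGF, with 70.2 and 91.8 in ETH and 167 and 221 in TAM. EGFR and NRG1 were lower.

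Among cell cycle genes, 4 of 9 G1 regulators, 1 of 20 mitosis genes and no DNA replication gene were called. Over all genes tested, 2.71% were called lower and 4.33% higher. Of 9 G1 regulators, CCND1, CCND2, CDKN1C and MYC were lower, with log2 fold changes of -0.46 ± 0.13, -0.71 ± 0.16, -3.43 ± 0.45 and -0.43 ± 0.11. Without TAZi_ETH replicate 2, 1 of the 4 calls was left, and edgeR called CCND2, CDKN1C and CDKN2C lower and MXD1 higher but neither CCND1 nor MYC. In Ctrli and in YAPi DESeq2 called no member of this list, with 5 at an unadjusted p under 0.05 in each, and edgeR called 1 lower in Ctrli and none in YAPi. No interaction with the Ctrli response was called among them by DESeq2 or edgeR, with 1 at an unadjusted p under 0.05. None of 25 DNA replication genes was called by DESeq2 or by edgeR, and 1 had an unadjusted DESeq2 p under 0.05. Among 20 mitosis genes, CDC20 was lower, with 1724 and 1993 in ETH and 1307 and 1369 in TAM, and was not called with the GC offset (DESeq2 adjusted p = 0.0811). The median over the replication genes was -0.08 in TAZi and -0.36 in Ctrli, where 4 were lower by DESeq2 and 1 by edgeR. No interaction with the Ctrli response was called among the replication genes by DESeq2, with or without the GC offset, or by edgeR. Of the 25, 7 had an unadjusted DESeq2 p under 0.05 for it.

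SRC and ESR1, whose sequences are related to the parts of the fusion, were checked. SRC had normalised counts of 218 and 287 in ETH and 201 and 187 in TAM, a log2 fold change of -0.38 ± 0.26 (DESeq2 adjusted p = 0.499), and ESR1 had 3084 and 3087 in ETH and 2663 and 2196 in TAM, a log2 fold change of -0.35 ± 0.12 (DESeq2 adjusted p = 0.0363). Neither was called, although ESR1 was with the GC offset (DESeq2 adjusted p = 0.0082). Reads of the transgene cannot be told apart from those of the endogenous genes here. Among 7 kinases of the Src family, LYN was higher, with 243 and 242 in ETH and 648 and 770.3 in TAM. Of 5 estrogen receptor target genes, XBP1 was higher, with 914 and 1038 in ETH and 1419 and 1450.0 in TAM, and TFF1 had 0 counts in all 4 libraries.

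Most of the response seen with control siRNA was also seen with TAZ siRNA. The Ctrli comparison used 4 other libraries and called 727 genes higher (4.73% of 15373) and 250 lower (1.63%). Of the 727, 480 were called higher in TAZi, which is 66.0% of the Ctrli calls and 69.5% of the TAZi calls, and 688 had a positive sign in TAZi. Of the 250 lower genes, 136 were called lower in TAZi, 54.4% of the Ctrli calls and 31.4% of the TAZi calls. In the opposite direction in TAZi, 2 of the Ctrli calls were found. The YAPi comparison called 558 genes higher (3.49% of 15988) and 188 lower (1.18%), of which 419 and 143 were also called in TAZi, 75.1% and 76.1% of the YAPi calls and 60.6% and 33.0% of the TAZi calls. Of the 506 genes called in TAZi and not in Ctrli, 23 were called in the test of the difference described below, as were 31 of the 359 called in Ctrli and not in TAZi and 18 of the 618 called in both. Called in the same direction in all 3 siRNA conditions were 364 genes that rose and 80 that fell.

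The size of the response was compared over genes chosen in the YAPi comparison, so that neither axis used its own libraries to pick them. This choice requires a response under knockdown of the paralog, so genes that did not pass with YAP siRNA, such as NDRG1, are left out. The slope says nothing of such genes. Over the 740 genes called there, the least squares slope through 0 of the TAZi log2 fold change on the Ctrli log2 fold change was 0.976. Across these genes, which are not independent replicates, Pearson's r was 0.91 and Spearman's rho 0.92. Restricted to the 637 genes whose mean count reached 100, the slope was 0.984. It was 0.742 when the genes were those called in Ctrli and 1.00 when they were those called in TAZi, so the value depends on which comparison chose the genes. With each TAZi replicate pair alone and a pseudocount of 1 it was 0.930 and 0.897. Among the Ctrli calls whose mean count reached 100, the median log2 fold change of those that rose was 1.08 in Ctrli and 0.81 in TAZi.

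**Figure D4:**
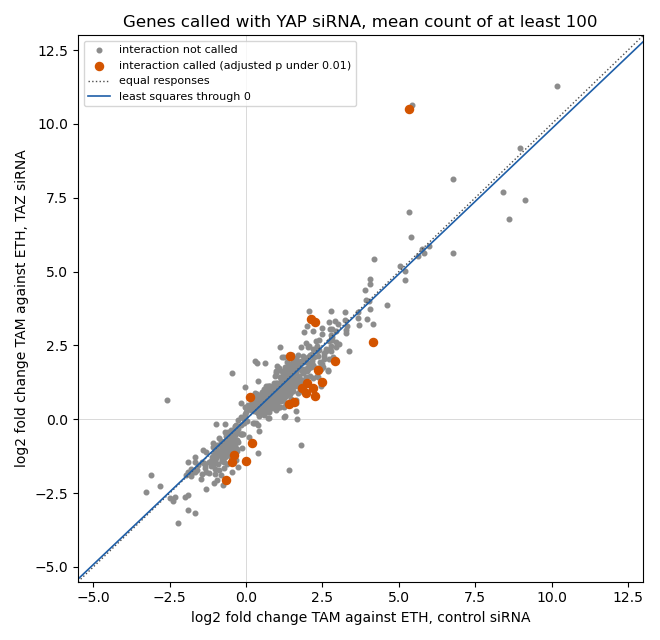
Log2 fold change of TAM against ETH with TAZ siRNA (vertical axis) against that with control siRNA (horizontal axis) for the 637 genes called with YAP siRNA and whose mean count reached 100. The blue line has the slope 0.984; 21 orange genes differed between the 2 responses, 16 below the dotted line of equal responses and 5 above it.

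The difference between the TAZi and Ctrli responses was tested gene by gene as an interaction over the 8 libraries. Of 14661 genes, 79 were called (0.539%), 63 with a smaller value in TAZi than in Ctrli and 16 with a larger one. Among the 79, 31 had a positive log2 fold change in Ctrli and a negative one in TAZi, 21 were positive in both and smaller in TAZi, and 11 were negative in both and more so in TAZi. The split moved with the setting. With the GC offset, 67 of 13369 were called (0.501%), 47 smaller and 20 larger, of which 51 were among the 79. Of the 47, 24 were positive in both and smaller in TAZi, and 18 were positive in Ctrli and negative in TAZi. Another 5 were negative in both and more so in TAZi, so the most frequent pattern changed with the offset. With effective length offsets 125 were called, 60 smaller and 65 larger. In 1 fit over all ER-Src groups 21 were called, 15 smaller and 6 larger, and edgeR called 5, all smaller. Leaving out 1 library gave 23 calls without Ctrli_ETH replicate 1, 24 without TAZi_TAM replicate 2, 31 without TAZi_ETH replicate 2, 40 without TAZi_TAM replicate 1, 49 without Ctrli_TAM replicate 1, 50 without Ctrli_TAM replicate 2 and 201 without TAZi_ETH replicate 1. The interaction value had a Spearman rho of -0.57 with transcript GC content across 9470 genes, and 0.03 with the offset.

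NDRG1, a stress-responsive gene also induced by hypoxia, had the most negative interaction among the named genes. It stood at 26.7 and 26.5 TPM in ETH and 102 and 80.4 TPM in TAM with control siRNA. With TAZ siRNA it stood at 26.1 and 30.2 TPM in ETH and 39.9 and 33.4 TPM in TAM. The log2 fold change was 2.53 ± 0.11 in Ctrli, 0.64 ± 0.14 in TAZi and 0.25 ± 0.19 in YAPi, a difference between TAZi and Ctrli of -1.89 ± 0.18 (DESeq2 adjusted p = 2.54e-22, and 3.18e-25 with the GC offset). Its rise was thus smaller with TAZ siRNA than with control siRNA. TGM1, the transglutaminase that cross-links the cornified envelope (ENSG00000092295.11, chr14:24249114-24264432, minus strand), stood at 10.8 and 11.1 TPM in ETH and 13.1 and 14.4 TPM in TAM with control siRNA. With TAZ siRNA it stood at 25.8 and 25.0 TPM in ETH and 12.6 and 13.3 TPM in TAM. The TAM libraries of both conditions lay between 12.6 and 14.4 TPM, and the ETH libraries were higher with TAZ siRNA than with control siRNA. TGM1 rose with control siRNA and fell with TAZ siRNA, a difference of -1.66 ± 0.20 (DESeq2 adjusted p = 3.25e-13, and 4.55e-11 with the offset). NDRG1 and TGM1 were also called by edgeR and in the fit over all ER-Src groups.

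GAS1, a membrane protein of growth arrest and a Hedgehog co-receptor, stood at 1.89 and 3.15 TPM in ETH and 8.75 and 9.75 TPM in TAM with control siRNA and 6.02 and 9.02 TPM in ETH and 9.22 and 7.25 TPM in TAM with TAZ siRNA. The TAM levels of both conditions overlapped, and the ETH levels were higher with TAZ siRNA than with control siRNA. Within each siRNA, TAM and ETH overlapped with TAZ siRNA and not with control siRNA. The difference in log2 fold change was -1.74 ± 0.37 (DESeq2 adjusted p = 0.00101, and 0.00279 with the offset). GAS1 was not called by edgeR (edgeR adjusted p = 0.118) or in the fit over all groups. NDUFC2-KCTD14, a read-through of neighbouring genes that shares exons with both, differed by -1.80 ± 0.37, and its reads are uncertain. ARHGAP23, a GTPase-activating protein, differed by -1.77 ± 0.44 (DESeq2 adjusted p = 0.0098) and was not called with the offset (DESeq2 adjusted p = 0.187).

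HP had the most positive difference. It stood at 0.14 and 0.18 TPM in ETH and 5.23 and 3.62 TPM in TAM with control siRNA. With TAZ siRNA it stood at 0.18 and 0 TPM in ETH and 99.1 and 78.7 TPM in TAM, above every control value. With YAP siRNA it stood at 0.18 and 0.06 TPM in ETH and 26.9 and 3.94 TPM in TAM, where the TAM libraries differed widely. The difference between TAZi and Ctrli was 5.17 ± 1.03 (DESeq2 adjusted p = 3.46e-04, and 3.54e-04 with the GC offset), and with 3 or fewer reads over the TAZi_ETH libraries its size rests on very low counts. HP was not called by edgeR (edgeR adjusted p = 0.136) or in the fit over all groups. SLC39A8, the zinc importer ZIP8 (ENSG00000138821.12, chr4:102251080-102431258, minus strand), stood at 14.1 and 9.58 TPM in ETH and 42.5 and 36.7 TPM in TAM with control siRNA. With TAZ siRNA it stood at 13.1 and 13.2 TPM in ETH and 107 and 133 TPM in TAM. It rose in both, and more with TAZ siRNA by 1.26 ± 0.15 (DESeq2 adjusted p = 8.81e-14, and 7.72e-13 with the offset). CFB, complement factor B, stood at 12.5 and 9.49 TPM in ETH and 47.6 and 33.5 TPM in TAM with control siRNA and 12.2 and 13.7 TPM in ETH and 95.9 and 93.0 TPM in TAM with TAZ siRNA, a difference of 1.03 ± 0.21 (DESeq2 adjusted p = 4.27e-04). SLC39A8 was called in the fit over all groups and not by edgeR, and CFB by neither. NDUFC2-KCTD14, ARHGAP23, ENSG00000257390 and MATR3 were called by neither as well. The remaining pair, ENSG00000257390 and a second annotated copy of MATR3, overlap other genes on the same strand, and MATR3 was not called with the offset. Their differences were 1.73 ± 0.39 and 0.79 ± 0.19. LTF, whose TAM values were higher with TAZ siRNA than with control siRNA, did not pass the interaction test, with a difference of 5.21 ± 1.78 (DESeq2 adjusted p = 0.152).

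By gene list, few interactions with control siRNA were called. FOSL2 was the AP-1 gene, with a rise of 1.55 ± 0.13 in Ctrli and 0.59 ± 0.13 in TAZi, a difference of -0.96 ± 0.18 (DESeq2 adjusted p = 9.23e-05, and 1.28e-04 with the offset). TNFAIP3 was the NF-kB gene, with a rise of 1.44 ± 0.19 in Ctrli and a difference of -1.04 ± 0.24. Of the 10 basal markers, 5 were called, all with a smaller value in TAZi: KRT5, KRT14, KRT17, EGFR and ITGB4, of which KRT14, KRT17 and EGFR remained called with the offset. By edgeR no interaction was called among the AP-1, NF-kB or basal lists. In the fit over all groups TNFAIP3 and KRT14 were called, and FOSL2, KRT17 and EGFR were not. KRT14 rose by 0.90 ± 0.12 in Ctrli and had -0.56 ± 0.10 in TAZi. KRT17 rose by 1.96 ± 0.09 in Ctrli and by 0.67 ± 0.12 in TAZi. Among the 20 STAT3 pathway genes no interaction was called by DESeq2 or edgeR, with 5 at an unadjusted DESeq2 p under 0.05. Among the 19 cytokine genes none was called by either tool, with 1 at an unadjusted p under 0.05. For SOCS3 the difference was 0.01 ± 0.24 and for STAT3 0.03 ± 0.14; a p above the threshold does not show that the responses were alike.

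**Figure D5:**
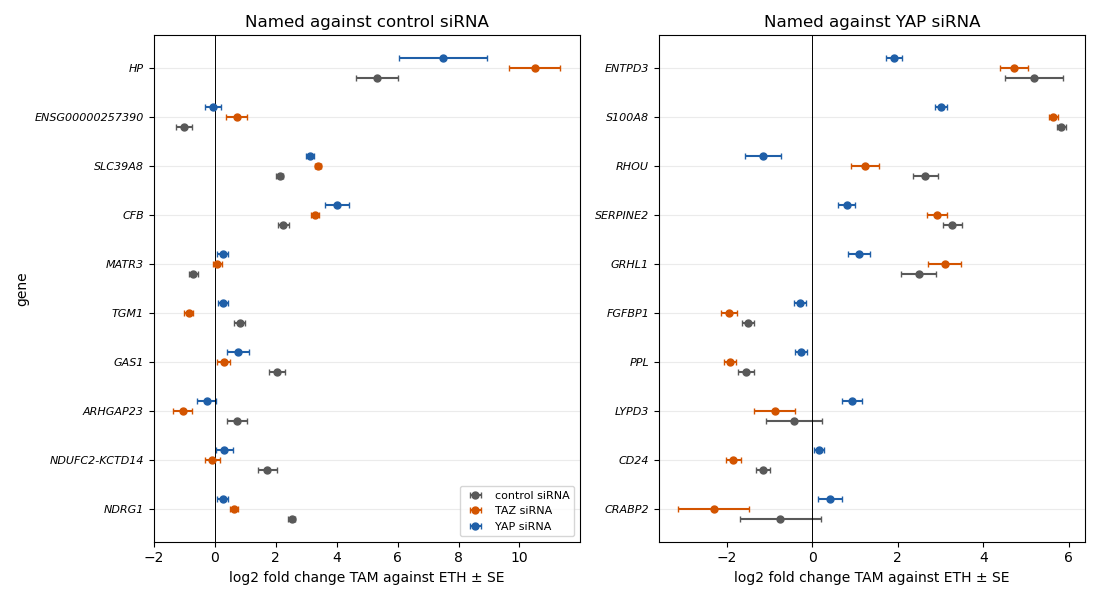
Log2 fold change of TAM against ETH with its SE (horizontal axis) in Ctrli, TAZi and YAPi for the 10 genes named in the interaction of TAZi with Ctrli (left) and the 10 named with YAPi (right). NDRG1 rises by 2.53 in Ctrli and 0.64 in TAZi, and CD24 falls by 1.85 in TAZi and stays near 0 in YAPi.

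The TAZi response was also compared with the YAPi response, which used the same TAZi libraries, so the 2 interaction tests are not independent. Of 18581 genes, 43 were called (0.231%), 22 with a larger value in TAZi and 21 with a smaller one. With the GC offset 25 of 36153 were called (0.0692%), 16 larger and 9 smaller, and 23 of them were among the 43. In 1 fit over all groups 21 were called and by edgeR 6. Leaving out 1 library gave 12 calls without TAZi_ETH replicate 2, 15 without TAZi_TAM replicate 2, 20 without TAZi_TAM replicate 1 or without YAPi_TAM replicate 2 and 54 without TAZi_ETH replicate 1. The interaction value had a Spearman rho of -0.66 with transcript GC content across 10013 genes.

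Calprotectin was among the genes that rose more with TAZ siRNA than with YAP siRNA. S100A8 (ENSG00000143546.9, chr1:153390032-153391073, minus strand) stood at 59.2 and 71.0 TPM in ETH and 2826 and 2989 TPM in TAM with TAZ siRNA. With YAP siRNA it stood at 505 and 397 TPM in ETH and 3830.1 and 2621 TPM in TAM. The TAM levels overlapped, and the ETH levels were higher with YAP siRNA. The difference in log2 fold change was 2.63 ± 0.18 (DESeq2 adjusted p = 8.72e-44), and its partner S100A9 differed by 1.89 ± 0.18. In Ctrli the rise of S100A8 was 5.82 ± 0.10, beside 5.64 ± 0.10 in TAZi. ENTPD3, an ectonucleotidase, stood at 0.31 and 0.4 TPM in ETH and 7.87 and 8.11 TPM in TAM with TAZ siRNA and 3.26 and 3.10 TPM in ETH and 9.59 and 10.9 TPM in TAM with YAP siRNA, a difference of 2.82 ± 0.35 (DESeq2 adjusted p = 5.65e-12). Its antisense partner ENTPD3-AS1 overlaps it, and without a stated strand setting the reads cannot be told apart. SERPINE2 stood at 1.84 and 2.63 TPM in ETH and 14.6 and 13.6 TPM in TAM with TAZ siRNA and 5.87 and 3.83 TPM in ETH and 7.65 and 6.12 TPM in TAM with YAP siRNA, a difference of 2.11 ± 0.28 (DESeq2 adjusted p = 1.75e-10). RHOU, an atypical small GTPase, differed by 2.38 ± 0.47, and GRHL1, a grainyhead factor of epithelial differentiation, by 2.00 ± 0.41. All 5 were called with the GC offset. S100A8 was not called in the fit over all groups, where S100A9 and the other four were, and RHOU was not called by edgeR.

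Among the genes with a smaller value in TAZi, CD24, a surface glycoprotein of epithelial cells, stood at 41.1 and 45.4 TPM in ETH and 8.99 and 12.9 TPM in TAM with TAZ siRNA. With YAP siRNA it stood at 107 and 101 TPM in ETH and 111 and 90.3 TPM in TAM. It fell with TAZ siRNA and with control siRNA (-1.15 ± 0.17) and did not pass with YAP siRNA, a difference between TAZi and YAPi of -1.99 ± 0.20 (DESeq2 adjusted p = 8.63e-19). PPL, the periplakin of the cornified envelope, stood at 13.7 and 15.7 TPM in ETH and 3.67 and 3.23 TPM in TAM with TAZ siRNA and 10.6 and 10.4 TPM in ETH and 8.21 and 7.35 TPM in TAM with YAP siRNA, a difference of -1.67 ± 0.18 (DESeq2 adjusted p = 6.38e-16). FGFBP1, which carries fibroblast growth factors, differed by -1.66 ± 0.22 (DESeq2 adjusted p = 3.62e-10). These 3 were called with the GC offset and in the fit over all groups, and of them edgeR called PPL. LYPD3 and CRABP2, with differences of -1.81 ± 0.41 and -2.67 ± 0.60, were not called with it (DESeq2 adjusted p = 0.0954 and 0.0377).

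Promoters were read from RefSeq (GRCh38.p14), each window covering 250 bases before to 50 bases after the gene start, and searched on both strands for the letters TTCNNNGAA (bound by STAT factors), TGANTCA (AP-1), GGAATG (TEAD) and TTGCNNAA (C/EBP). Matches of different motifs may overlap. Among genes called higher, 517 had a window and 8.7% of them held the STAT letters, as did 4.0% of the 321 called lower, against 6.3% of the windows of 10963 genes tested and 7.9% of all 27305 windows. The AP-1 letters were in 7.9% of genes called higher and 6.2% of those called lower, against 4.9% of those tested and 7.8% of all windows. The TEAD letters were in 10.8% of genes called higher and 13.4% of those called lower, against 10.8% of those tested and 14.0% of all windows. The C/EBP letters were in 10.8% of genes called higher and 7.5% of those called lower, against 7.1% of those tested and 10.6% of all. These shares describe letters in a window and not binding.

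The windows of SERPINB4 (chr18:63644207-63644506) and SERPINB3 (chr18:63661844-63662143), both on the minus strand, are shown because the paralogs rose together. They were identical at 296 of 300 positions (98.7%). Capitals mark the TEAD letters, read here on the opposite strand as CATTCC.
SERPINB4: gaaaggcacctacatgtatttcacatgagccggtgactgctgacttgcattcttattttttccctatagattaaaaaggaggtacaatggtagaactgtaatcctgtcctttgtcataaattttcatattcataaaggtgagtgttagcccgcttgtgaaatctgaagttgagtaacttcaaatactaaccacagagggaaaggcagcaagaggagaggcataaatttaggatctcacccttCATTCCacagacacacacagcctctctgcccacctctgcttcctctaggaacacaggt
SERPINB3: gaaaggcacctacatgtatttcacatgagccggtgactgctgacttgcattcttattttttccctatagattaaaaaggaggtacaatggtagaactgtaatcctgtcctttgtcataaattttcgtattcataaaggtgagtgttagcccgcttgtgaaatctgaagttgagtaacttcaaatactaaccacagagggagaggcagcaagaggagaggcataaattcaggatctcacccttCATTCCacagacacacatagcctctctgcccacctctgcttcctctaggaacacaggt
The windows of CISH (chr3:50611725-50612024, minus strand), a SOCS family inhibitor of cytokine signals, and BCL6 (chr3:187745419-187745718, minus strand) are shown as the STAT3 pathway members with the most matches to the STAT letters, 4 in each, and were chosen after their values were seen. Capitals mark the STAT letters.
CISH: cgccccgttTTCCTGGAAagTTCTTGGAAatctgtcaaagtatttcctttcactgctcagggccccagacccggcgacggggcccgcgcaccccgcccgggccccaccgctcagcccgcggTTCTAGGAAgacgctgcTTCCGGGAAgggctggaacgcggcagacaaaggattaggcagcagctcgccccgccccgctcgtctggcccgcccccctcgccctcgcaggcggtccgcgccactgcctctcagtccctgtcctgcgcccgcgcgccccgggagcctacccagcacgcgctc
BCL6: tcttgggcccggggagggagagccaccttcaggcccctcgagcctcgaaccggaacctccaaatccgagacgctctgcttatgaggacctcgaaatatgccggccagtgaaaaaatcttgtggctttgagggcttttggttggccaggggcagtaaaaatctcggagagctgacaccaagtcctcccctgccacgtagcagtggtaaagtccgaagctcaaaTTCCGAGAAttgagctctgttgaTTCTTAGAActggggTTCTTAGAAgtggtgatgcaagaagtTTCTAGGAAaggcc
CISH had normalised counts of 19.4 and 12.9 in ETH and 131 and 90.5 in TAM in TAZi, a log2 fold change of 2.76 ± 0.52 (DESeq2 adjusted p = 2.77e-06). The window of SOCS3, which rose most in that list, held no match to the STAT letters, which says only that these letters are not within that stretch.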

How the data were processed

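RNA libraries made from total RNA with a TruSeq Ribo Profile kit and sequenced on a Illumina HiSeq were trimmed, aligned with STAR to the GENCODE v30 transcriptome and quantified with RSEM by the authors; versions of these tools and the strand setting are not given in the sources used here. The authors deposited, per library, an expected count, a TPM and an effective length for 61471 identifiers. Expected counts of 60725 Ensembl genes were rounded and tested here, TPM values were used to compare levels, and 649 numeric, 96 spike-in and 1 phiX identifiers were left out. Names, gene types and positions came from GENCODE 44 (GRCh38), which matched 93.1% of the Ensembl genes. Samples were grouped by their titles.

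TAM was compared with ETH within each siRNA, and the responses were compared by an interaction term, with DESeq2 1.42.0 in R 4.3.3 (Wald test, Benjamini-Hochberg adjustment). A gene was called at an adjusted p under 0.01, and an adjusted p that DESeq2 withheld was left missing. Alternatives were edgeR 4.0.16 (quasi-likelihood test), TMM size factors, a mean count of at least 10, effective length offsets, 1 fit over all ER-Src groups, a replicate block and each library left out. A GC content offset was added after seeing the data; it was fitted per library as a smooth curve over the GC content of each gene's longest transcript. The main fit, edgeR, the GC content offset and the replicate block were also run on simulated counts with known changes. This was done for the TAZi response and its interaction with Ctrli, and not for the other fits.

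The genes named were 9 fixed genes (WWTR1, YAP1, SRC, ESR1, STAT3, JUNB, FOS, FOSL2, IL6), the 10 with the largest rise and 10 with the largest fall among called protein-coding genes with a mean normalised count of at least 100 and groups that did not overlap, the 5 most positive and 5 most negative per interaction by the same criteria without the overlap condition, and up to 4 called members per list with the largest changes and a mean of at least 100, with any member named as not called. Further members named to complete a count, and list members named for an interaction, were chosen after their values were seen. The libraries compared and the 32 gene lists were chosen with earlier results of these data known. Some list members are not reported here. Counting intervals are exact 95% intervals and cover counting error only.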

Additional observations from a re-analysis of the deposited data

Results flagged for a closer look

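The change from ETH to TAM differed between siRNA conditions by a test of the difference itself (DESeq2 interaction term) in 79 genes for TAZi against Ctrli and in 43 for TAZi against YAPi. The differences in log2 fold change between TAZi and Ctrli were -1.89 for NDRG1, -1.80 for NDUFC2-KCTD14, -1.77 for ARHGAP23, -1.74 for GAS1 and -1.66 for TGM1, all with a smaller value in TAZi. They were 5.17 for HP, 1.73 for ENSG00000257390, 1.26 for SLC39A8, 1.03 for CFB and 0.79 for the second copy of MATR3. For GAS1 and TGM1 the TAM levels overlapped and the ETH levels were higher with TAZ siRNA. ARHGAP23 and MATR3 were not called with the GC offset. Between TAZi and YAPi the differences were -2.67 for CRABP2, -1.99 for CD24, -1.81 for LYPD3, -1.67 for PPL and -1.66 for FGFBP1. They were 2.82 for ENTPD3, 2.63 for S100A8, 2.38 for RHOU, 2.11 for SERPINE2 and 2.00 for GRHL1. CRABP2 and LYPD3 were not called with the GC offset.

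Outside the genes compared, the identifier of bacteriophage phiX174, which is added to sequencing runs as a control, took up to 0.0802% of the counts of a TAZi library, against at most 0.0732% of those of a Ctrli library.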

How the results depend on the processing

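With 1124 calls, the TAZi response kept its count within 1.5 times under edgeR (1119), the GC content offset (1135) and the replicate block (795), and leaving out 1 library gave 470 to 832. The Ctrli response had 633 calls under the replicate block, 649 under the block with the GC offset and 426 to 509 without 1 library, against 977. The YAPi response had 420 by edgeR and 308 to 449 without 1 library, against 746. The interaction of TAZi with Ctrli had 5 calls by edgeR, 125 with effective length offsets (65 positive, 60 negative, against 16 and 63), 21 in 1 fit over all groups, 75 under the block and 23 to 201 without 1 library. The interaction with YAPi had 6 calls by edgeR (5 positive), 21 in 1 fit over all groups, 25 with the GC offset (16 positive, 9 negative, against 22 and 21), 63 under the block (24 positive, 39 negative) and 12 to 54 without 1 library. The slope was 0.742 over genes called in Ctrli, 1.00 over those called in TAZi, and 0.930 and 0.897 with replicate pair 1 or 2 alone. Fits without a library assume that the lone library varies like the other groups. Of 2 values near 0, WWTR1 ran from -0.36 to 0.035 and YAP1 from -0.035 to 0.20 without 1 library, and YAP1 was -0.01 without TAZi_ETH replicate 2. Among 115 named genes of the TAZi response, 832 of 920 values under other settings kept their direction and side of the threshold and 87 lost the call, and without 1 library 318 of 460 kept both, 139 lost the call and 3 changed sign. For the 10 genes of each interaction, 48 of 80 values were kept with Ctrli and 63 of 80 with YAPi. The labels give replicates a number and nothing else in common. Deviations of same-numbered libraries correlated at 0.268 in TAZi, 0.152 in Ctrli and 0.490 in YAPi, over 2 pairs each, too few to tell whether they are paired. Under the replicate block 42 of the 79 calls against Ctrli were shared, and 6 of the 10 named genes there and 4 of the 10 against YAPi were not called. With 2 libraries per group and 7949070 counts in the shallowest, genes near 10 counts were measured with little precision. The causes of these changes were not tested.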

Other observations

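Further lists were counted in the same way. Of 21 interferon-stimulated genes, 5 were higher in TAM and none lower, among them the signalling factors STAT2 and IRF9, GBP2 and IFI44L. IRF9 had normalised counts of 47.5 and 73.7 in ETH and 262 and 201 in TAM, a log2 fold change of 1.94 ± 0.34. IFI44L was not called with the GC offset, and 2 of the 5 calls were left without TAZi_ETH replicate 2. Of 19 genes of the ATF4 and unfolded protein responses, the chaperone HSP90B1 and the factor XBP1 were higher. Lower were DDIT4, PSAT1, an enzyme of serine synthesis, and the amino acid transporters SLC7A11 and SLC7A5. SLC7A11 had 694 and 763 in ETH and 390.0 and 492 in TAM, a log2 fold change of -0.72 ± 0.18. DDIT4 was not called with the GC offset, and none of the 4 lower calls was left without that library. Of 17 TGF-beta ligands, receptors and responses, TGFBR3, ID1 and ID3 were lower, of which ID1 was not called with the GC offset and 1 call was left without TAZi_ETH replicate 2. ID3, an inhibitor of basic helix-loop-helix factors, had 780.5 and 950.5 in ETH and 273 and 355 in TAM, a log2 fold change of -1.46 ± 0.19.

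Of 24 cholesterol and fatty acid synthesis genes, 4 were higher and 2 lower, and none was called without TAZi_ETH replicate 2. With the GC offset HMGCS1, higher, and FASN and SREBF1, lower, were not called, and SCD was lower. MSMO1 had normalised counts of 2514 and 2207 in ETH and 3222 and 3722 in TAM, a log2 fold change of 0.56 ± 0.12. Of 15 p53 target genes, RRM2B and PLK2 were higher and TP53I3 lower. TP53I3 was not called with the GC offset, where SESN1 was lower, and no lower call was left without TAZi_ETH replicate 2. Of 15 contractile and SRF target genes, TAGLN, TPM4 and FHL2 were higher and FLNA lower. FLNA was not called with the GC offset, where MYL9 was higher and TPM1 lower, and 1 call was left without TAZi_ETH replicate 2. Of 20 Hippo pathway genes and TEAD partners, VGLL4 and WWC1 were higher and AMOTL1 lower, which was not called without TAZi_ETH replicate 2. WWC1, the KIBRA scaffold that activates the Hippo kinases, had 769 and 864 in ETH and 4423 and 4101 in TAM, a log2 fold change of 2.39 ± 0.12. Of 17 MAPK feedback genes, SPRED1 was higher, and with the GC offset DUSP1 and IER2 as well. None of the 8 luminal markers and none of the 3 endothelial markers with an adjusted p was called by DESeq2 or by edgeR, with 3 and 1 at an unadjusted DESeq2 p under 0.05.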
